A study of Mus musculus with 16 samples.

Results

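The genes of the matrix-degrading metalloproteinases and of their tissue inhibitors were followed in the inguinal fat of mice, a white adipose depot under the skin. Members were taken by symbol from a table of 16091 genes: every gene named Mmp, Timp, Adamts, Adamtsl or Adam followed by a number, whatever its values. This gave 55 genes, of which 14 were Mmp, 4 Timp, 16 Adamts, 5 Adamtsl and 16 Adam genes. Poly-A RNA of C57BL6/J mice was sequenced in 16 libraries, 4 in each of 4 groups. On each of 2 diets, a control diet and a high-fat diet, mice were either left untreated or given an antibody against PDGFcc. The antibody, AF1447, is directed against PDGF-CC, a ligand of the receptor PDGFRA, and was given to mice of 6 weeks into the peritoneum, at a dose of 50 mg/kg dissolved in PBS (100 µl), every 2 days over 2 weeks. The sources used here do not say whether untreated mice had a control injection, how long feeding lasted, or whether each library is a separate animal. The p-values therefore rest on a spread between samples that could be partly technical. The tissue label was checked: 9 of 9 adipocyte markers were present in every library, and Adipoq, which encodes adiponectin, lay between 78000 and 97150 normalized counts.

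Matrix metalloproteinases (MMPs) are zinc proteases that cut collagens, laminins and other matrix proteins, and most are made as inactive precursors. The 4 tissue inhibitors (TIMPs) bind their active sites. ADAMTS proteases are secreted and cut proteoglycans and procollagens, ADAMTS-like proteins share their accessory domains without the protease, and ADAM proteases sit in the membrane and release the outer parts of other membrane proteins. In fat these enzymes remodel the collagen-rich shell around adipocytes and the bed on which progenitors and vessels grow.

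Upstream sequences are shown for 5 members to which the results below return: Mmp3, the most abundant stromelysin here, and Mmp12, Timp1, Adamts14 and Adam8, which rose with high-fat feeding in at least 1 comparison below. Each run is the 250 bases before a start listed by RefSeq on GRCm38.p6, read 5′ to 3′ on the gene's strand. Capitals mark matches on either strand to TGANTCA (the AP-1 motif), TATAAA (the TATA box) or GGGCGG (the GC box), and adjoining GC boxes run together. They lie at chr9:7445572-7445821 on the plus strand (Mmp3), chr9:7347124-7347373 on the plus strand (Mmp12, the second of its listed starts, inside the annotated gene), chrX:20869916-20870165 on the plus strand (Timp1), chr10:61273420-61273669 on the minus strand (Adamts14) and chr7:139992563-139992812 on the minus strand (Adam8).
Mmp3: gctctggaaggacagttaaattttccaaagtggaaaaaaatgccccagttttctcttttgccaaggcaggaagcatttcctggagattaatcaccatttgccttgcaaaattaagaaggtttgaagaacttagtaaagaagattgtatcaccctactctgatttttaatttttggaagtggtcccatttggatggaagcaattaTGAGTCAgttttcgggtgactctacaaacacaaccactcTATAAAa
Mmp12: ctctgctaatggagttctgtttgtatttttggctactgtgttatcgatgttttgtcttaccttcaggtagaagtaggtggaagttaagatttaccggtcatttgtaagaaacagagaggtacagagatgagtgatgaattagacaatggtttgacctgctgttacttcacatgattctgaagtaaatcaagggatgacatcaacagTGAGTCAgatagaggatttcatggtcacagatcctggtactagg
Timp1: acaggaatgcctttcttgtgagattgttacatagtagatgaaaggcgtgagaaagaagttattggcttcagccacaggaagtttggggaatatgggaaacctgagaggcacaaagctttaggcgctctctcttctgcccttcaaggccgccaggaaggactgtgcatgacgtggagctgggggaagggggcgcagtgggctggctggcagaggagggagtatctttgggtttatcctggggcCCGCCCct
Adamts14: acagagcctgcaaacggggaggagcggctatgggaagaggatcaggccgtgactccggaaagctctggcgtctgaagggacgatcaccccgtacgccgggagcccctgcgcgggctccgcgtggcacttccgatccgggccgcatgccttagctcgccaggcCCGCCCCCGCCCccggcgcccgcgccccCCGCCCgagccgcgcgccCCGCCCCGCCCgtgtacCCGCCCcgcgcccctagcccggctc
Adam8: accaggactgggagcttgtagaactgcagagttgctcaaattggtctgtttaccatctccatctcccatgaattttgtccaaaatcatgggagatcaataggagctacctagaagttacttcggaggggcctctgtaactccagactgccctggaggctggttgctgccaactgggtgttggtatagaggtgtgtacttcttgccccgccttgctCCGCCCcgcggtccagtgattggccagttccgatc
Of the 55 members, 35 had a promoter in that table. Mmp3 held an AP-1 match beginning 46 bases and a TATA match beginning only 7 bases before its listed start. Both distances rest on that start, which was used as listed. Mmp12 held an AP-1 match beginning 44 bases before the start shown. The window before the other listed start of Mmp12, at chr9:7344147-7344396 on the plus strand, held 0 matches to any of the motifs. Counting every listed start, AP-1 matches were found in 4 of the 35 members (Adam19, Mmp12, Mmp13 and Mmp3), or 11.4%, against 6.75% of 32851 promoters. TATA matches were found in 11.4% of members and 12.4% of promoters. GC boxes were found in 23 members, 65.7%, against 32.7% of promoters, and Adamts14 held 6 of them. A member was counted if any of its listed starts matched, while promoters were counted singly. G and C made up 76.4% of the Adamts14 window, against a median of 52.4% over all promoters. The shares were not adjusted for G and C content. These are matches of letters and no measure of binding.

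Values are the deposited normalized counts, a linear scale. Of all genes 14189 were tested, those above 24.49 normalized counts in at least 4 libraries. Among members 47 passed this filter, 43 of them in all 16 libraries. The 8 left out were Adam2, Adam4, Adam5, Adamts3, Adamts17, Adamts18, Mmp13 and Mmp25. Differences are on the scale log2(value + 1) from a limma fit over all tested genes, with p-values adjusted by Benjamini and Hochberg over all 14189 and a threshold of 0.05. Library totals spanned 24.02 to 28.15 in units of 1e6 normalized counts, and within a group the correlation of libraries across genes was 0.9499 to 0.992. The tissue is bulk, so fewer cells of a type and less RNA per cell cannot be told apart.

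Per length, inhibitors and a gelatinase led the set. Timp2, whose product both inhibits MMPs and helps MMP14 activate pro-MMP2, had 4477 ± 977 normalized counts per kb of exon (SD, n = 16). Mmp2, the gelatinase that cuts denatured and basement membrane collagen, had 2564 ± 514 per kb. Timp3, the inhibitor that stays bound to the matrix and also blocks ADAM17 and aggrecanases, had 1271 ± 231 per kb. These 3 genes made up 40.2% to 50.5% of the summed level per kb of the 55 members in a library.

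Next in order came Adam9 (1029 per kb), Mmp3 (922 per kb), Adam15 (852 per kb), Mmp19 (660 per kb), the aggrecanase gene Adamts5 (634 per kb), Timp4 (587 per kb), the procollagen N-proteinase gene Adamts2 (581 per kb) and Mmp14 (536 per kb). From Adam9 down, neighbours in this order differed by less than the larger of their SDs over the 16 libraries. The summed level per kb of the 4 Timp genes divided by that of the 14 Mmp genes was 1.05 ± 0.11 (SD, n = 4) in untreated control-diet libraries and 1.17 ± 0.0624 in antibody control-diet libraries. It was 1.09 ± 0.091 in untreated and 1.14 ± 0.147 in antibody high-fat libraries, with all 16 libraries between 0.924 and 1.26 and all 4 ranges overlapping. The other gelatinase gene, Mmp9, stood at 244 per kb and the inducible inhibitor gene Timp1 at 149.5 per kb.

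**Figure D1:**
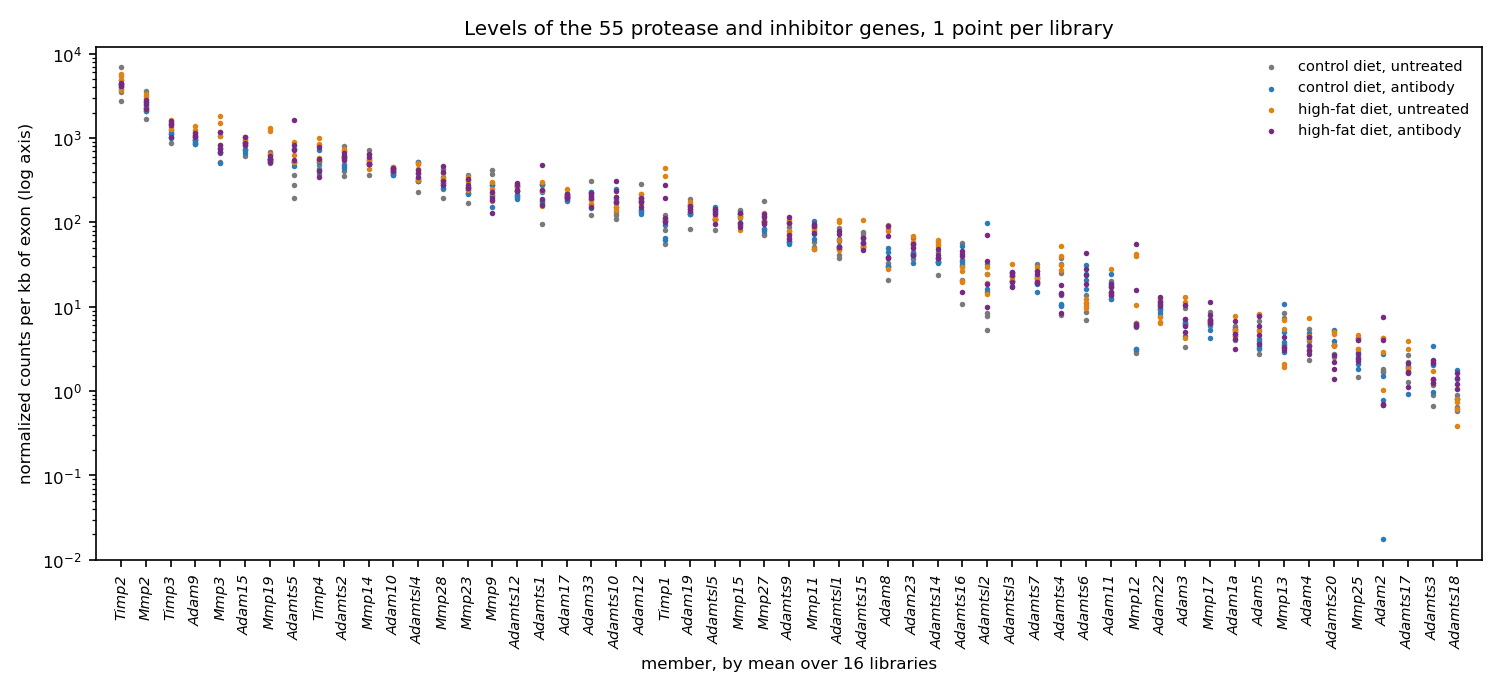
Level of each of the 55 members in normalized counts per kb of exon (log axis), 1 point for each of the 16 libraries, ordered by mean and coloured by group. Timp2, Mmp2 and Timp3 stand at the top with means of 4477, 2564 and 1271 per kb.

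The collagenase gene Mmp13 was near the bottom, with 5.22 to 28.5 normalized counts. The 7 other members that were left out also stayed at or below 30.49 normalized counts in every library. The ADAM genes known from testis (Adam2, Adam3, Adam4, Adam5) were all at low levels, and Adam2 ranged down to 0.0479 normalized counts. Of the 10 members that share exon sequence with a gene on the opposite strand, Timp3 with Syn3 (1733 bases), Adam1a with Tmem116 (848 bases) and Mmp19 with Tmem198b (789 bases) share most. Their values are uncertain to that extent, because the sources used here do not give the strand setting. Adam1a also shares 1805 bases of exon with Mapkapk5 on its own strand, which no strand setting would separate.

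How widely a member ranged over the 16 libraries differed greatly. Adam10 and Adam17, the main membrane sheddases of Notch, tumour necrosis factor and growth factor precursors, spanned only 1.26-fold and 1.38-fold from the lowest library to the highest. Adamts12 spanned 1.54-fold and Adam9 1.61-fold. At the other end were Mmp12 (19.4-fold), Adamtsl2 (18.5-fold), Adamts5 (8.51-fold), Timp1 (7.84-fold), Adamts4 (6.58-fold) and Adamts6 (6.25-fold). The median coefficient of variation within a group was 29.7% over all 55 members in untreated control-diet libraries and between 17.7% and 20.4% in the other groups.

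**Figure D2:**
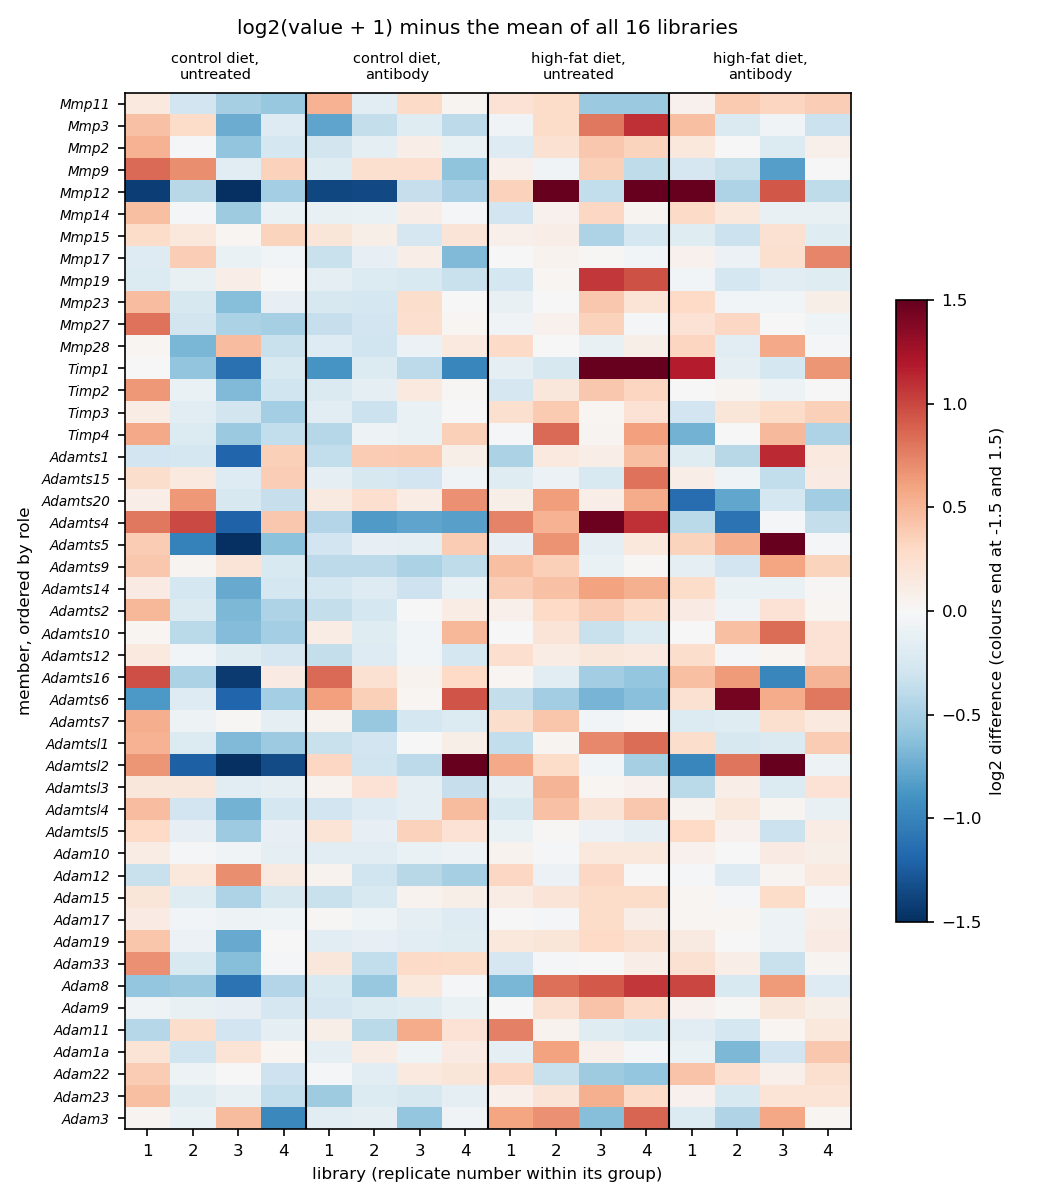
Each of the 47 tested members (rows, by role) in each of the 16 libraries (columns, by group): log2(value + 1) minus the mean of the 16, with colours ending at -1.5 and 1.5. Untreated control-diet replicate 3 is low for many members, such as Adamts5 at 2074 normalized counts, and untreated high-fat replicates 3 and 4 are high for Timp1 at 389 and 317 normalized counts. Untreated control-diet replicate 1 is high for several members, such as Timp2 at 26840 normalized counts.

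High-fat feeding without antibody raised 3 of the 47 tested members and lowered 0, which is 6.38% of them. The background of all tested genes was 8.15%, made up of 2.98% higher and 5.17% lower. Of all genes called, 36.6% were higher as deposited and 65.6% when library totals were made equal. That scaling moved the median of all genes from 0.02 to 0.12 and gave 5 member calls (10.6%, against 10.1% of all genes). The 3 members were Adamts14, Adam9 and Adam8. The point estimate was above 0 in 40 of 47 members, against 53.1% of all genes, with a median log2 change of 0.26 over members and 0.02 over all genes, and in 39 and 44 of 47 under quantile normalization and equal totals.

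Adamts14 encodes a protease that trims the amino-terminal propeptide from fibrillar procollagens, and its upstream sequence above holds the run of GC boxes. It measured 229.1, 174.2, 124.1 and 174.1 normalized counts in untreated control-diet libraries 1 to 4. In untreated high-fat libraries 1 to 4 it measured 270.4, 284.5, 318.4 and 303.5. All 4 high-fat libraries lay above all 4 control-diet libraries, for a log2 change of 0.77 (SE 0.15, adjusted p = 0.0167). Adamts2, with the same activity and a far higher level, gave 0.47 (SE 0.19, adjusted p = 0.11).

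Adam9 encodes a widely expressed membrane sheddase. Its values were 4056, 3875, 3855 and 3514 in control-diet libraries and 4198, 4909, 5644 and 5129 in high-fat libraries, again without overlap (log2 change 0.37, SE 0.08, adjusted p = 0.0263). Adam15, another membrane sheddase gene, gave 0.39 (SE 0.12, adjusted p = 0.0621), and 0.49 with equal library totals (adjusted p = 0.0483). Adam8, a sheddase of leukocytes and of activated macrophages, measured 137.8, 140, 95.37 and 152.4 on the control diet and 128.7, 369, 391.9 and 433.5 on the high-fat diet. Here 3 of the 4 high-fat libraries were above every control-diet library and replicate 1 lay among them (log2 change 1.21, SE 0.35, adjusted p = 0.0491). A two-sided exact permutation test over the 70 assignments of libraries to groups gave p = 0.114 for Adam8. For Adam9 and Adamts14 that test gave 0.0286, the smallest p it can give.

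The elastase gene of macrophages, Mmp12, had the largest point estimate of the members. It measured 21.74, 44.49, 20.43 and 41.57 on the control diet and 75.81, 287.7, 45.91 and 309.4 on the high-fat diet. Control-diet replicates 1 and 3 lay below the filter value of 24.49, so the estimate starts near that value. Over all groups 12 of 16 libraries were above it. The groups did not overlap, but the 4 high-fat libraries differed widely among themselves and the log2 change of 2.10 (SE 0.69) had an adjusted p of 0.0661. Adam9, Adamts14 and Mmp12 were the only members whose groups did not overlap with high-fat higher (6.38%, background 4.54%).

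Among inhibitors, all 4 Timp point estimates were above 0 and 0 of 4 passed. Timp1 measured 108.5, 72.11, 49.63 and 93.01 on the control diet and 99.63, 92.65, 389.1 and 316.8 on the high-fat diet. High-fat replicates 3 and 4 were high and replicates 1 and 2 lay within the control range (log2 change 1.24, SE 0.45, adjusted p = 0.09). Timp3 gave 0.43 (SE 0.14, adjusted p = 0.072), at 8920 ± 1597 normalized counts in control-diet and 11910 ± 1213 in high-fat libraries (SD, n = 4).

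None of the abundant MMPs passed. Mmp2 measured 8302 ± 2819 and 9807 ± 1670 on control and high-fat diets (SD, n = 4), and Mmp14, its membrane-bound activator, 3125 ± 874 and 3258 ± 544, and both moved less than their spread. The control-diet spread of Mmp2 came largely from replicate 1, at 12190 against 5619 to 8337 in the others. With that replicate left out Mmp2 passed. Mmp3 measured 2110, 1879, 930.8 and 1362 against 1499, 1885, 2692 and 3322 (log2 change 0.58, SE 0.27, unadjusted p = 0.0492 and adjusted p = 0.164 by limma). Mmp19 measured 1937, 2054, 2386 and 2242 against 1859, 2267, 4632 and 4319, so that replicates 3 and 4 were again the high ones (0.50, SE 0.22, unadjusted p = 0.0387 and adjusted p = 0.143 by limma). The exact permutation test gave p = 0.171 for Mmp3 and p = 0.314 for Mmp19. The estimates for Mmp9 and for the membrane-type gene Mmp15 were below 0, Mmp15 at -0.34 (SE 0.15, adjusted p = 0.136). Mmp11, stromelysin-3, measured 164 ± 39.0 and 186 ± 58.6.

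The 3 calls depended on the libraries used. For Adamts14 the call ended when untreated control-diet replicate 4 (adjusted p = 0.0693) or untreated high-fat replicate 3 (0.0579) or 4 (0.0636) was left out. For Adam9 it ended without untreated control-diet replicate 3 (0.0672) or 4 (0.0992) or untreated high-fat replicate 2 (0.0624), 3 (0.0698) or 4 (0.084), and for Adam8 without any of 14 of the 16 libraries (0.0507 to 0.141), keeping it only without untreated control-diet or untreated high-fat replicate 1. The number of members called was 17 without untreated control-diet replicate 1 (36.2%, against 29% of all genes), with Mmp2, Timp2, Timp3 and Adamts2 among them. It was 6 without untreated high-fat replicate 1 (12.8%, against 13.8%). It was 1 (2.13%) without untreated control-diet replicate 3 or untreated high-fat replicate 2, against 0.655% and 0.825% of all genes. It was 0 without untreated control-diet replicate 4 or untreated high-fat replicate 3 or 4, against 0%, 0.578% and 0%.

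**Figure D3:**
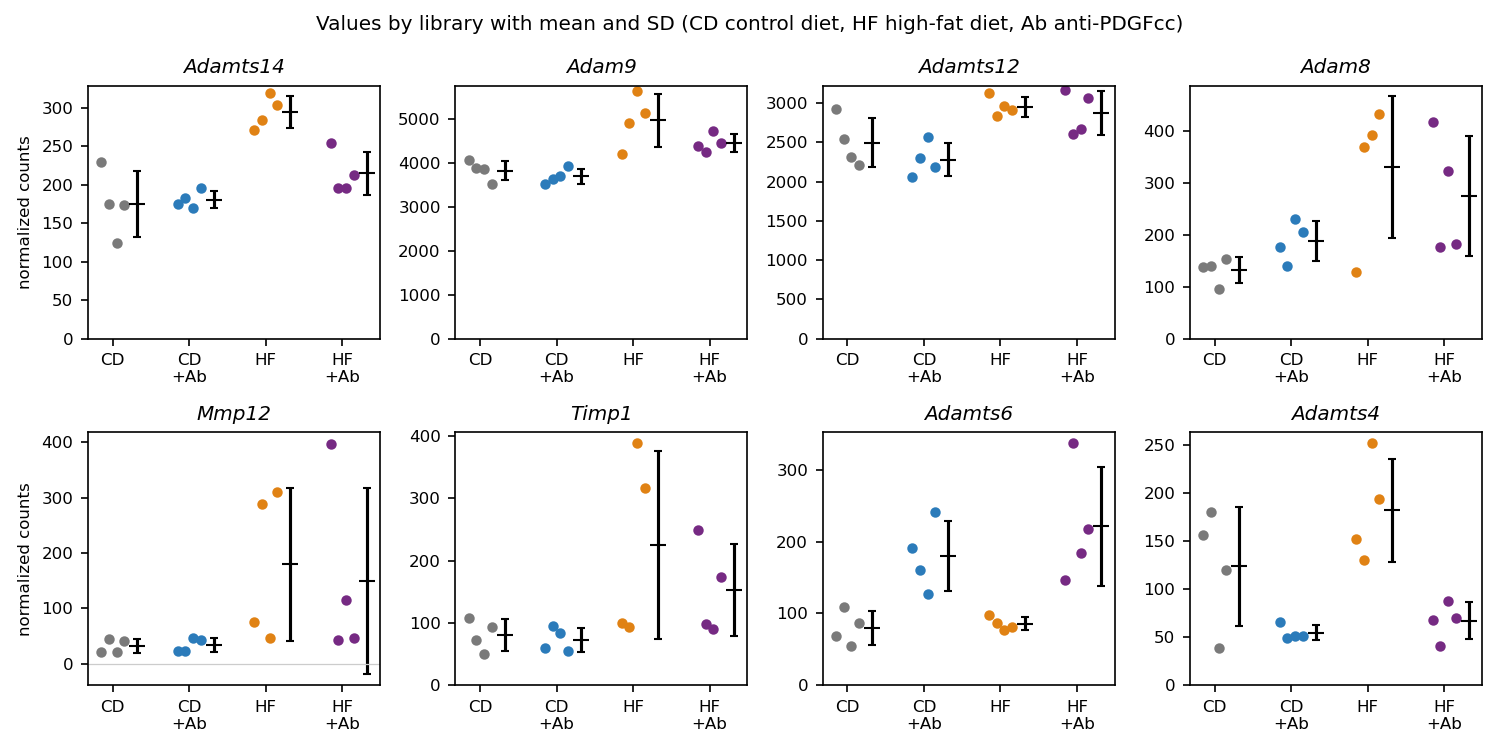
Normalized counts of 8 members by library (points) with the mean and SD of each group of 4, on linear axes; CD is control diet, HF high-fat diet and Ab anti-PDGFcc. High-fat untreated libraries of Adamts14 (270.4 to 318.4) lie above those of the control diet (124.1 to 229.1), and all 8 antibody libraries of Adamts6 (127 to 337.9) lie above the 8 untreated ones (54.11 to 108.7).

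In mice that received the antibody, the same diet comparison called 0 of 47 members, and 0.00705% of all genes. At an unadjusted p under 0.05 there were 9 members (19.1%) and 18.1% of all genes. These 8 libraries are not those of the untreated comparison, and the values can therefore be set side by side. Members above 0 in both comparisons numbered 32 of 47 (68.1%), against 39.8% of all genes, and 3 were below 0 in both. Same-sign members were 74.5%, close to the 72.5% of all genes. There were 6 members without overlap and with high-fat higher: Adam9, Adam10, Adam19, Adamts9, Adamts12 and Adamts14 (12.8%, background 6.38%).

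Adamts12, which encodes a protease that cuts cartilage oligomeric matrix protein, measured 2059, 2305, 2564 and 2192 with antibody on the control diet. It measured 3163, 2601, 2672 and 3059 with antibody on the high-fat diet (log2 change 0.33, SE 0.09, adjusted p = 0.11). Adam9 measured 3521, 3633, 3691 and 3926 against 4379, 4238, 4727 and 4449 (0.27, SE 0.08, adjusted p = 0.127). Both kept to narrow ranges, with each high-fat library above each control-diet library.

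Adam10 measured 1816, 1795, 1888 and 1912 against 2107, 2015, 2191 and 2139, a small separation without overlap (0.19, SE 0.06, adjusted p = 0.147). Adamts9, whose product cuts versican, gave 0.53 (SE 0.18, adjusted p = 0.16). Adamts14 measured 174.9, 182.9, 169.3 and 195.3 against 254.3, 195.8, 195.5 and 212.2 (0.24, SE 0.15, adjusted p = 0.399), a smaller difference than the 0.77 without antibody. Its interaction estimate, the antibody effect on the high-fat diet minus that on the control diet, was -0.53 (SE 0.21, adjusted p = 0.671), so the 2 diet effects were not shown to differ.

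Adamts20, a low-level relative of Adamts9, was the member that did not overlap in the other direction (2.13%, background 9.08%). It measured 32.06, 34.94, 31.76 and 47.47 with antibody on the control diet and 12.69, 16.63, 24.14 and 20.05 with antibody on the high-fat diet (log2 change -0.97, SE 0.26, adjusted p = 0.0934). All 4 of the latter lay below the filter value of 24.49, so it passed the filter through the other groups.

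**Figure D4:**
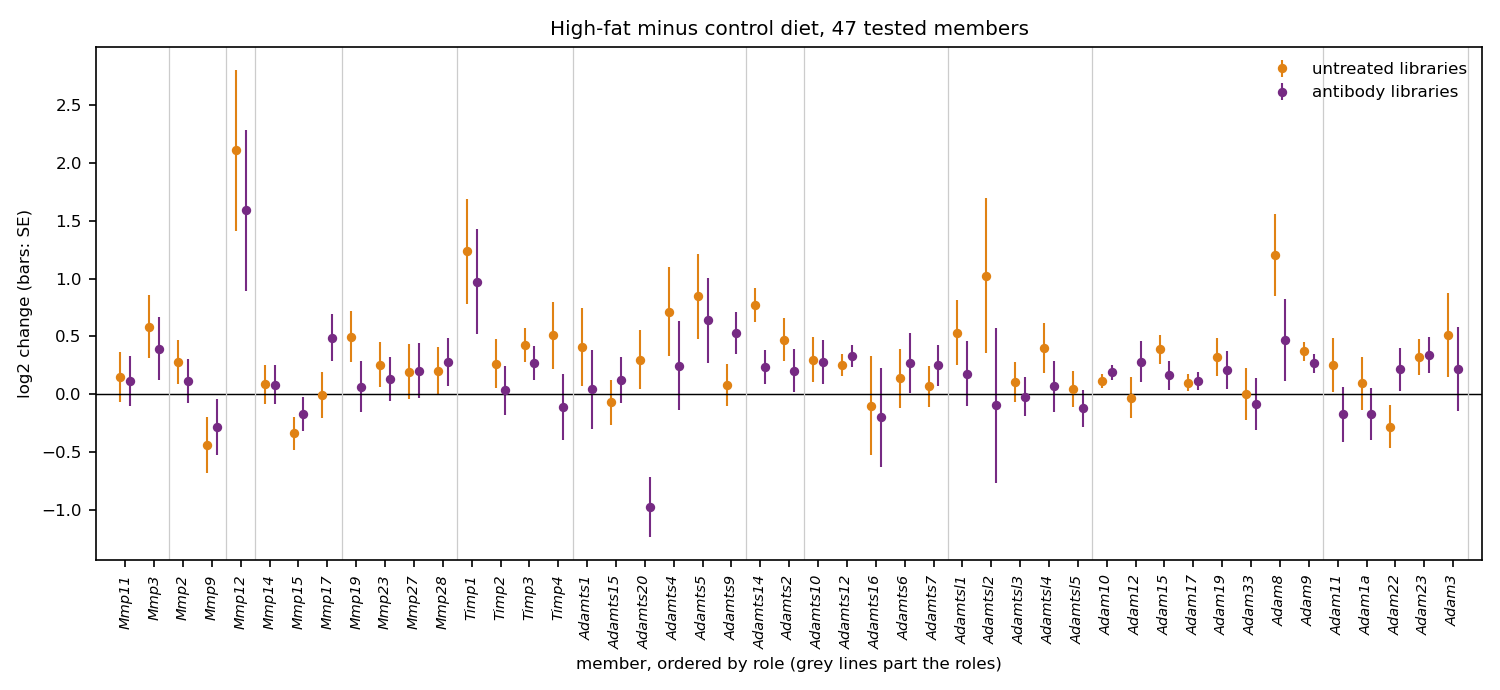
Log2 change from control to high-fat diet for the 47 tested members, ordered by role, in untreated libraries (orange) and antibody libraries (purple), with bars of 1 SE. Mmp12 has the largest estimates at 2.10 and 1.59, most points lie above 0, and Adamts20 lies at -0.97 in antibody libraries.

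Averaged over both antibody states, a contrast added after the values had been seen, the diet raised 10 of 47 members and lowered 0 (21.3%, against a background of 19.4%, with 8.28% of genes higher and 11.1% lower). Of all genes called, 42.6% were higher as deposited and 71.4% with equal library totals. Equal totals moved the median of all genes from 0.02 to 0.11 and gave 14 member calls, all higher (29.8%, against 27.2% of all genes). The 10 were the sheddase genes Adam8, Adam9, Adam10 and Adam15, the non-catalytic Adam23, Adamts12, Adamts14, Mmp12, Timp1 and Timp3. The largest was Mmp12 at 1.85 (SE 0.49, adjusted p = 0.0203), followed by Timp1 at 1.10 (SE 0.32, adjusted p = 0.0287) and Adam8 at 0.84 (SE 0.25, adjusted p = 0.0316). Adam9 rose by a log2 change of 0.32 (SE 0.06, adjusted p = 0.00554), Adamts14 by 0.51 (SE 0.10, adjusted p = 0.00796) and Adamts12 by 0.29 (SE 0.07, adjusted p = 0.0117). Adam9 was the only member with all 8 high-fat libraries, at 4198 to 5644, above all 8 control-diet libraries, at 3514 to 4056 (2.13% of members, background 0.437%).

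By role, 4 of the 8 catalytic ADAM genes rose, 2 of 4 Timp genes, the metalloelastase gene, and 1 each of the tested procollagen N-proteinase, other ADAMTS and non-catalytic ADAM genes. None of the tested gelatinase, stromelysin, membrane-anchored or other MMP, proteoglycan-cleaving ADAMTS or ADAMTS-like genes passed. Among these, Adamts5 had the lowest adjusted p at 0.0569 (log2 change 0.74, SE 0.26). Adam9, Adamts12, Adamts14 and Mmp12 kept their calls without any of the 16 libraries in turn. The count of 10 became 21 without untreated control-diet replicate 1 (44.7%, against 33.3% of all genes), with Mmp2, Mmp3 and Adamts5 among them. It became 4 (8.51%) without antibody control-diet replicate 1 or untreated high-fat replicate 4, against 11.8% and 12.8% of all genes. It became 5 (10.6%) without untreated control-diet replicate 3, antibody control-diet replicate 2 or untreated high-fat replicate 3, against 14.6%, 12.1% and 14.9%. It became 6 (12.8%) without untreated control-diet replicate 4, untreated high-fat replicate 2 or antibody high-fat replicate 1, against 11.2%, 16.2% and 18.2%. Without antibody high-fat replicate 3, 5 members rose and 1, Mmp15, fell (12.8%, against 12.6% of all genes). Adam10, Timp1, Timp3, Adam8, Adam15 and Adam23 each lost their call in some of these.

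The antibody changed 0 of 47 members past the threshold on the high-fat diet, against 0.0775% of all genes, and 0 of 47 on the control diet, against 0.0987%. Of the few genes called on the high-fat diet 45.5% were higher as deposited and 73.3% under quantile normalization, and on the control diet 57.1% as deposited and 86.7% with equal library totals. At an unadjusted p under 0.05 there were 7 members on each diet (14.9%, against 13.5% and 11.6% of all genes). On the high-fat diet 15 of 47 point estimates were above 0 (50.1% of all genes) with a member median of -0.15. On the control diet 26 of 47 were above 0 (48% of all genes) with a median of 0.03, or -0.03 under quantile normalization.

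Adamts6 had the smallest p of the members on both diets. It encodes a secreted protease closely related to ADAMTS10, and both are known from the biology of fibrillin microfibrils. On the control diet it measured 68.33, 108.7, 54.11 and 87.07 untreated and 190.8, 160.3, 127 and 240.7 with antibody (log2 change 1.17, SE 0.26, adjusted p = 0.0916). On the high-fat diet it measured 97.32, 86.3, 76.39 and 80.54 untreated and 146.8, 337.9, 183.9 and 217.2 with antibody (1.31, SE 0.26, adjusted p = 0.0638). Neither pair of groups overlapped (on the control diet 2.13% of members, background 3.43%). The high-fat estimate passed when untreated control-diet replicate 1 (adjusted p = 0.0465) or 3 (0.0459) or untreated high-fat replicate 1 (0.0282) was left out.

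Averaged over the diets, again a contrast added after the values were seen, Adamts6 rose by a log2 change of 1.24, a 2.36-fold change (SE 0.18, 95% interval 0.85 to 1.63, adjusted p = 0.00444). All 8 antibody libraries lay above all 8 untreated libraries, which held for 0.331% of all genes. The call remained without any of the 16 libraries in turn, with estimates of 1.13 to 1.33. Its relative Adamts10 gave 0.47 (SE 0.14, adjusted p = 0.0845), at 1120 ± 242 untreated and 1561 ± 333 normalized counts with antibody in control-diet libraries, and 1370 ± 224 and 1910 ± 488 in high-fat libraries (SD, n = 4).

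Adamts4, an aggrecanase gene, was the member that fell in the average over diets (log2 change -1.20, SE 0.27, adjusted p = 0.0317). On the control diet it measured 155.9, 180.1, 38.27 and 119.7 untreated and 66, 49.34, 51.38 and 50.67 with antibody. Untreated replicate 3 lay below all the antibody libraries, so the groups overlapped (-0.97, SE 0.38, adjusted p = 0.34). On the high-fat diet it measured 151.3, 129.8, 251.8 and 193 untreated and 67.69, 41.05, 87.77 and 69.97 with antibody, without overlap (-1.44, SE 0.38, adjusted p = 0.144). The high-fat estimate passed when untreated control-diet replicate 3 was left out (adjusted p = 0.0335). Untreated control-diet replicate 3, low for many members, and replicate 2 of the untreated high-fat group, highest in muscle markers, were set apart from the rest. Untreated control-diet replicate 1 stood out the other way, highest of all libraries for Timp2, Mmp2, Mmp14 and Adamts2, and was kept. Without those 2 libraries Adamts4 passed on the high-fat diet (-1.58, adjusted p = 0.0499) and on the control diet (-1.46, adjusted p = 0.0405). No set rule picked those libraries, and untreated control-diet replicate 3 holds the lowest Adamts4 value of all. Passing without it is therefore no separate support. The averaged call was lost without any of 9 libraries, with an adjusted p of 0.0507 to 0.0747. These were untreated control-diet replicates 2 and 4, antibody control-diet replicates 2, 3 and 4, untreated high-fat replicates 3 and 4, and antibody high-fat replicates 2 and 4.

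Adamts6 and Adamts4 made up 4.26% of members, against 2.52% of all genes called in the averaged contrast (1.54% higher and 0.987% lower). Of those genes 60.9% were higher as deposited and 75.9% with equal library totals. The other aggrecanase gene, Adamts5, had wide values, at 7992, 3031, 2074 and 3984 untreated and 5013, 5596, 5579 and 7974 with antibody on the control diet. It measured 5632, 9789, 5578 and 6826 untreated and 7728, 8942, 17660 and 6004 with antibody on the high-fat diet. The groups overlapped on both diets, and its point estimates, 0.66 and 0.45, were of the other sign from those of Adamts4.

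Of the members lower with antibody on the high-fat diet, Adam19, Adamts4, Adamts14 and Adamts20 did not overlap (8.51%, background 3.47%), and Adamts6 was the member that did not overlap and was higher (2.13%, background 3.91%). Adamts20 measured 31.12, 45.6, 31.32 and 43.33 untreated and 12.69 to 24.14 with antibody (log2 change -1.02, SE 0.26, adjusted p = 0.121). Those antibody values all lay below the filter value of 24.49. Adamts20 thus passed the filter only through the other groups, and its place in the 8.51% is a description only. Adamts14 measured 270.4 to 318.4 untreated and 195.5 to 254.3 with antibody (-0.46, SE 0.15, adjusted p = 0.18). Adam22, a non-catalytic ADAM of the synapse, gave 0.53 (SE 0.18, adjusted p = 0.216) and passed without untreated high-fat replicate 1 (adjusted p = 0.03). Mmp19 gave -0.61 (SE 0.22, adjusted p = 0.23), with 1859 to 4632 normalized counts untreated and 1859 to 2166 with antibody.

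On the control diet the smallest p-values after Adamts6 belonged to Adamts9, Adam12, Adamts4 and Adamts10. Adamts9 measured 1538, 1198, 1335 and 993.3 untreated and 888.3, 891.7, 839.9 and 899.2 with antibody, without overlap (log2 change -0.51, SE 0.18, adjusted p = 0.298). It was the member that did not overlap and was lower (2.13%, background 3.33%). Adam12, meltrin alpha of mesenchymal cells, measured 2142 ± 635 untreated and 1530 ± 270.5 with antibody (SD, n = 4; -0.45, SE 0.18, adjusted p = 0.339). Adamts10 gave 0.48 (SE 0.19, adjusted p = 0.341).

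The inhibitor genes showed no antibody call. Timp2 measured 16870 ± 6978 untreated and 16600 ± 1883 with antibody on the control diet, and 19380 ± 3629 and 16930 ± 533 on the high-fat diet (SD, n = 4). Timp1 measured 58.77, 94.44, 82.89 and 54.85 with antibody on the control diet and 248.5, 98.81, 90.41 and 173.3 with antibody on the high-fat diet. Timp4, an inhibitor gene known from heart and fat, had estimates of 0.08 on the control diet and -0.54 (SE 0.29, adjusted p = 0.441) on the high-fat diet.

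**Figure D5:**
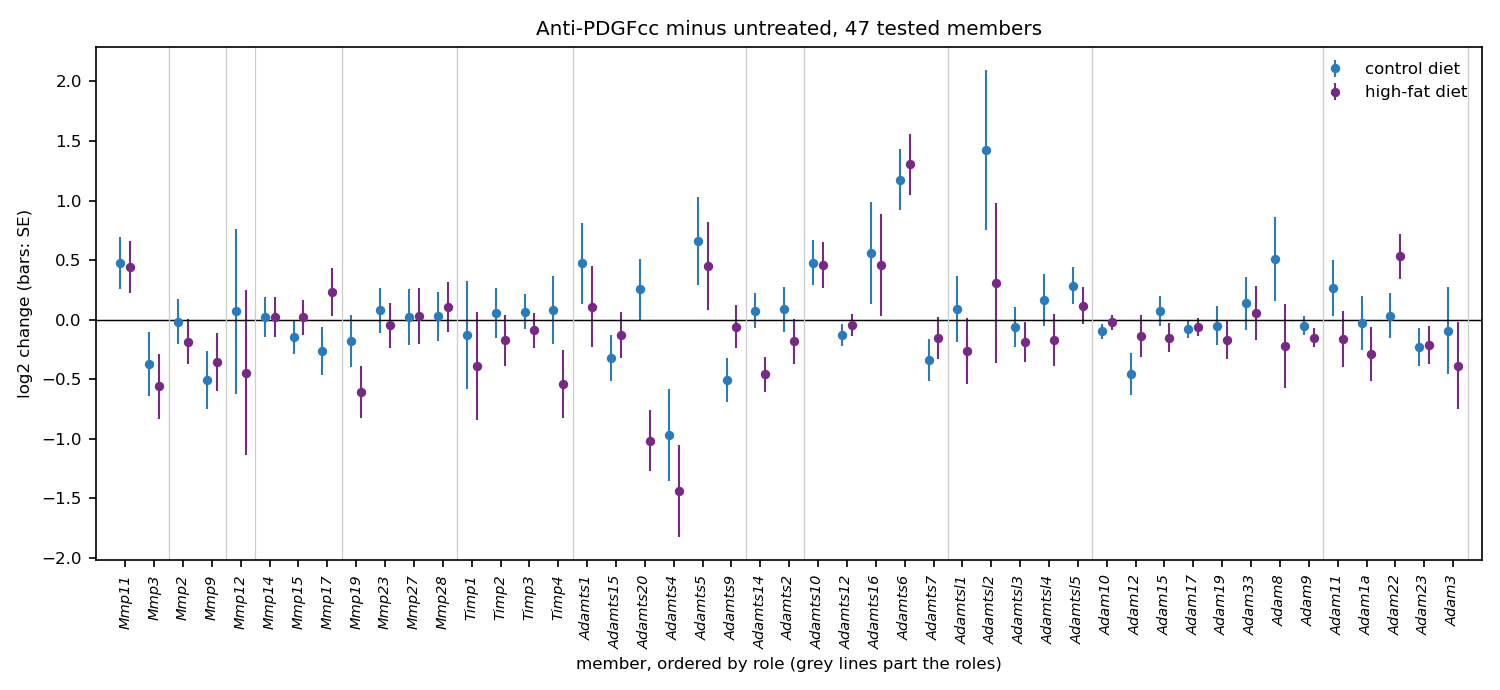
Log2 change from untreated to antibody for the 47 tested members, ordered by role, on the control diet (blue) and the high-fat diet (purple), with bars of 1 SE. Adamts6 lies at 1.17 and 1.31, Adamts4 at -0.97 and -1.44, and Adamts20 at -1.02 on the high-fat diet.

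The antibody effects on the 2 diets share no libraries. Of 47 members 13 were above 0 in both and 19 below 0 in both, or 68.1% of the same sign, against 57.2% of all genes. Adamts4, Adamts6 and Adamts10 had an unadjusted p under 0.05 on both diets (6.38%, background 2.99%). The test of the difference itself, the interaction of diet and antibody, called 0 of 47 members and 0% of all genes. At an unadjusted p under 0.05 it had 2 members, Adamts14 and Adamts20 (4.26%, background 6.18%). The estimate for Adamts20, whose antibody high-fat values all lay below the filter value, was -1.27 (SE 0.36, 95% interval -2.04 to -0.50, adjusted p = 0.298). For Adamts6 it was 0.13 (95% interval -0.64 to 0.91), an interval that spans differences in either direction. Behind these 2 members by p came Adam22 (0.50), Adamts9 (0.45) and Mmp17 (0.49), none past the threshold.

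Several well-known members passed in none of the contrasts. Mmp9, the gelatinase of leukocytes, measured 1489, 1334, 739.8 and 1043 untreated and 725.2, 970.8, 978.3 and 543.8 with antibody on the control diet. In high-fat libraries it measured 870.1, 790.9, 1053 and 629.8 untreated and 691.5, 651.1, 462.3 and 818.6 with antibody. Its point estimates were below 0 in the 4 comparisons of 2 groups, from -0.51 to -0.28, with all ranges overlapping.

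Adam19, meltrin beta, measured 905.5 ± 15.3 in antibody control-diet libraries, 1047 ± 70.9 in antibody high-fat libraries and 1176 ± 49.3 in untreated high-fat libraries (SD, n = 4), these 3 groups being tight. The untreated control-diet libraries were spread, at 979 ± 310. Adamts1, whose product cuts versican and aggrecan, had diet estimates of 0.41 (SE 0.34) untreated and 0.04 (SE 0.34) with antibody. Among ADAMTS-like genes, Adamtsl4 measured 1430 ± 514 on the control and 1837 ± 362.5 on the high-fat diet without antibody (SD, n = 4). Adamtsl2, whose product binds fibrillin, ranged from 42.67 to 253.5 in untreated and from 120.7 to 791 in antibody control-diet libraries (log2 change 1.42, SE 0.67, adjusted p = 0.429).

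Other genes of the same biology were counted from lists of substrates, other proteases and regulators. Of 33 tested matrix substrate genes, 6 rose and 0 fell on the high-fat diet without antibody, a contrast in which 2.98% of all genes rose and 5.17% fell, and the point estimate was above 0 in all 33 (median 0.51, against 0.02 over all genes). The 4 with the smallest adjusted p were the thrombospondin gene Thbs2 (log2 change 0.997, SE 0.22, adjusted p = 0.0266) and the microfibrillar collagen VI genes Col6a3 (0.84, SE 0.20, adjusted p = 0.031), Col6a2 (0.85, SE 0.23, adjusted p = 0.04) and Col6a1 (0.81, SE 0.23, adjusted p = 0.0438). Averaged over antibody, 17 of the 33 rose and 0 fell, against 8.28% and 11.1% of all genes. With the antibody averaged over diets 1 fell: Lamb1, a laminin chain gene, from 11720 ± 1876 to 8310 ± 1396 normalized counts (SD, n = 8; log2 change -0.50, SE 0.10, adjusted p = 0.016).

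Of 21 tested genes of other matrix-degrading proteases and their activators, 2 rose and 0 fell with diet in untreated libraries, beside the same 2.98% and 5.17% of all genes. They were Plaur, the urokinase receptor, from 70.07 ± 23.8 to 167 ± 43.6 normalized counts (SD, n = 4; adjusted p = 0.0178), and the secreted serine protease gene Htra3 (log2 change 0.55, SE 0.16, adjusted p = 0.0475). Averaged over antibody 4 of the 21 rose (Plaur, Pcsk5, Htra1 and Htra3) and 2 fell, beside 8.28% of all genes higher and 11.1% lower. Those that fell were Furin, the convertase that activates membrane-type MMPs (-0.18, SE 0.06, adjusted p = 0.0385), and Bsg, an inducer of MMP genes (-0.23, SE 0.07, adjusted p = 0.0312). Of 14 genes listed as other protease inhibitors 1 rose with diet in untreated libraries, Tfpi2, a serine protease inhibitor deposited in matrix, from 90 ± 30.6 to 224.9 ± 56.2 (SD, n = 4; adjusted p = 0.0149). Of 23 sheddase substrates and regulators 3 rose in the same untreated comparison, beside 2.98% of all genes. They were Btc, an EGF receptor ligand released from the membrane (log2 change 1.01, SE 0.21, adjusted p = 0.0242), Rhbdf2, the iRhom that carries ADAM17 to the surface (0.68, SE 0.14, adjusted p = 0.0242), and Cd44 (0.73, SE 0.20, adjusted p = 0.043). ADAM17 itself did not pass: Adam17 measured 1445 ± 92.4 and 1553 ± 153 normalized counts (SD, n = 4).

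Of 14 transcriptional regulators known to act on MMP genes 3 rose with diet in untreated libraries, beside 2.98% of all genes. Fos, a subunit of the AP-1 factor, went from 92.4 ± 8.43 to 406 ± 241 normalized counts (SD, n = 4; log2 change 1.91, SE 0.35, adjusted p = 0.0149), Runx2 gave 0.73 (SE 0.20, adjusted p = 0.0413) and Stat3 0.33 (SE 0.09, adjusted p = 0.0398). Averaged over antibody, where 8.28% of all genes rose and 11.1% fell, 4 of the 14 genes listed as protease inhibitors rose (Tfpi2, Tfpi, Serpinf1 and Pcolce). Pcolce encodes an enhancer of a procollagen proteinase, so that list does not hold inhibitors alone. In the same contrast 4 of the 23 sheddase substrates and regulators and 3 of the 14 regulators rose. Of the 23, 1 fell, the ErbB receptor gene Erbb4 (-0.68, SE 0.18, adjusted p = 0.0192). In none of these 5 lists did a gene pass for the antibody on either diet, for the diet with antibody or for the interaction.

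Levels of cell type markers moved beside some of these results. The summed level of 13 macrophage markers was 35810 to 72580 normalized counts in untreated control-diet libraries and 47550 to 86750 in untreated high-fat libraries. It was 44360 to 61970 and 50720 to 62250 with antibody on the control and high-fat diets. No macrophage marker was at 0, Cd68 rose with the diet in untreated libraries (log2 change 0.76, SE 0.20, adjusted p = 0.04), and all 13 point estimates were above 0. Within the untreated high-fat group the macrophage sums of replicates 1 to 4 were 47550, 65220, 86750 and 72480. In that group Adam8 was lowest in replicate 1 (128.7), where this sum was lowest, and Mmp12 was lowest in replicate 3 (45.91), where it was highest. Sums of 11 fibroblast and progenitor markers were 85190 to 201300 on the control diet and 146800 to 219000 on the high-fat diet, both untreated. Of 5 tested mast cell markers 3 rose with the diet in untreated libraries (Cma1, Tpsb2 and Cpa3), and 1 of 5 point estimates was below 0. Averaged over antibody the same number rose and 1 fell, Kit (log2 change -0.82, SE 0.16, adjusted p = 0.00719).

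Markers also moved beside the antibody results. In the average over diets, where Adamts6 rose and Adamts4 fell, the mural cell marker Cspg4 rose (log2 change 0.64, SE 0.13, adjusted p = 0.0171), 1 of 7 tested, and so did the endothelial marker Egfl7 (0.31, SE 0.08, adjusted p = 0.0458), 1 of 7 tested. The lists as a whole did not rise with them: 3 of 7 mural point estimates were above 0 (median -0.02) and 5 of 7 endothelial ones (median 0.05). Summed mural cell markers were 13950 to 25200 normalized counts in the untreated groups and 15470 to 21650 in the antibody groups, and summed endothelial markers 15830 to 22470 and 15080 to 26430, with 0 of either list at 0. On the high-fat diet 0 markers passed for the antibody, but the point estimates were below 0 for all 13 macrophage markers (median -0.28), all 7 Schwann cell and nerve markers (median -0.62), all 5 mast cell markers (median -0.34) and all 10 skeletal muscle markers (median -5.32). Summed Schwann cell and nerve markers were 6714 to 12840 normalized counts untreated and 5401 to 6846 with antibody in those high-fat libraries.

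Skeletal muscle markers ranged from a sum of 167 to 505500 normalized counts, highest in untreated high-fat replicate 2, with Ckm, Myh4 and Pvalb at 0 in some libraries. By group the sums were 269.5 to 30770 (untreated control diet), 29310 to 169500 (antibody control diet), 5709 to 505500 (untreated high-fat) and 167 to 8326 (antibody high-fat). Adipocyte marker sums lay between 956800 and 1195000 in all libraries. What part any of these cell types has in the protease and inhibitor values was not tested.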

How the data were processed

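Messenger RNA of inguinal fat was measured in 16 libraries of 4 groups, with stranded libraries per the labels' protocols. The tools named are limma 3.42.2, STAR 2.7.0e, fastp 0.20.1, Subread 1.6.2 and featureCounts, and the builds GRCm38 and mm10, per the submitters' processing notes, with no role or order. The deposited values are a linear signal per gene that the table calls normalized counts. How they were normalized and filtered, and the strand setting, is not given in the sources used. The values are not whole numbers, whole reads were not recovered and read depth is unknown, so no count model was run and no interval from counting is given. Of the values 255 are 0. Every column was mapped to a sample and no pair of columns was identical.

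Genes above 24.49 (the median library total divided by 1e6) in at least 4 libraries were tested. A mean for each group was fitted to log2(value + 1) over all 16 libraries (limma 3.58.1, R 4.3.3), with a variance trend (residual degrees of freedom 12, prior 3.07), and tests were two-sided. Fold changes on this scale understate the change of low genes. Of the contrasts, 5 came from the design, and the 2 averages over diets and over antibody were added after values were seen. The fit was also run on simulated data, with independent normal errors and the same spread in every group. The libraries here are not so even, so that run checked the code and not the calls. Levels per kb divide by the union of exons in GENCODE vM21, in which all 55 members were found.

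Members and lists were chosen with earlier results of these data known. Named are members past the threshold, the 5 with the smallest p in each contrast, a set list of well-known members, those highest per kb and up to 4 called genes of each other list. Alternatives were another pseudocount (8), no filter, quantile normalization, equal totals, no trend, weighted libraries, only the groups compared, a replicate block and leaving out libraries.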

Additional observations from a re-analysis of the deposited data

Results flagged for a closer look

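For 33 named members the libraries of each group were checked for a value far from the others, 132 groups of 4 in all, and 3 stood out. Chance alone marks about 1 group in 20. Adam8 measured 128.7 normalized counts in untreated high-fat replicate 1, while the other 3 libraries of that group lay between 369 and 433.5. Adam17 measured 1583 in untreated control-diet replicate 1, with the others at 1388 to 1416. Adamts4 measured 66 in antibody control-diet replicate 1, with the others at 49.34 to 51.38.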

How the results depend on the processing

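Over 37 results named by member and their alternatives, 908 values were computed: 774 kept their side of the threshold, 109 no longer passed, 25 newly passed and 0 changed direction. The results were chosen as calls or for a small p in these same data, so a change of direction was unlikely from the start. Results that did not pass in either fit count among those kept. Counts of calls here are in either direction. For the diet without antibody, 3 members were called, against 5 with equal library totals (10.6%, against 10.1% of all genes). Weighted libraries gave 19 (40.4%, against 30.9%). The count was 0, of members and of all genes, with only the 2 groups compared, with a replicate block, or without the 2 libraries that stood apart. Those 2 were untreated control-diet replicate 3 and replicate 2 of the untreated high-fat group, picked by no set rule. Untreated control-diet replicate 1, high for several members, was kept in that setting. Each of the next 3 comparisons had 0 calls as reported. With weighted libraries the antibody on the high-fat diet had 9 (19.1%, against 9.37% of all genes). The antibody on the control diet had 2 (4.26%, against 5.34%) and the diet with antibody 4 (8.51%, against 7.75%). Without the 2 libraries that stood apart the antibody comparisons had 1 call each (2.13%, against 0.0705% of all genes on the high-fat and 0.148% on the control diet). With only the groups compared the diet with antibody had 1 (2.13%, against 4.52%). The averaged antibody effect went from 2 calls to 13 with weights (27.7%, against 13.8% of all genes) and 1 with the replicate block (2.13%, against 0.867%). The averaged diet effect went from 10 to 22 with weights (46.8%, against 36.1%). It went to 4 with the block (8.51%, against 10.6%) and 5 without the 2 libraries (10.6%, against 11%). Leaving out 1 library at a time gave 0 to 17 calls for the diet without antibody, 0 to 3 for the antibody on the high-fat diet, 0 to 0 for the antibody on the control diet, the diet with antibody and the interaction, 1 to 3 for the averaged antibody effect and 4 to 21 for the averaged diet effect. Calls over all genes shifted too, in that order 0 to 4119, 1 to 271, 0 to 86, 0 to 239, 0 to 1, 144 to 533 and 1593 to 4721. The cause of these shifts was not tested. Libraries numbered 2 deviated together in all 4 comparisons of 2 groups (correlations 0.126 to 0.487, each best with its own number), while for the other numbers the correlations were -0.539 to 0.176 and none was best with its own number. With 6 of 16 pairs above 0.1 rather than all, the numbers were not taken to pair the samples. All genes called for the diet without antibody numbered 1157 as reported and 0 with the block. Adam8 is the call most often lost, passing in 5 of 25 alternatives, against 17 for Adam9 and 19 for Adamts14. Depth before normalization is unknown, which limits what can be said of the low members.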
